A study of Mus musculus with 30 samples.

Results

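The genes described here are the hypoxia response and glycolysis genes, a list of 36 symbols that covers glucose uptake, the glycolytic enzymes, lactate and pyruvate handling, and genes known to be switched on when oxygen is low. The list was chosen by what the genes are known to do, with earlier results of these data known. The symbols were looked up in the platform's probe-to-gene table, and the row with the highest mean was taken for each gene. Of the 36 symbols, 34 were found and tested among 19938 genes, Ero1l under its current symbol Ero1a. Gpi1 and Eno1 were on no named row and are not analysed here.

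EL4, a lymphoma line of mouse T cell origin, was grown as subcutaneous tumours, so each sample held host cells as well as lymphoma cells. In the ABX groups the mice had been given an antibiotic cocktail for 3 weeks before the EL4 cells were injected, and in the H2O groups they had not. All mice then received the DNA-damaging platinum drug oxaliplatin, at 10 mg per kg into the abdomen 7 days after the cells, and tumours were taken 0, 6 or 18 h later. The 30 samples thus form 6 groups of 5 arrays, ABX 0 h, H2O 0 h, ABX 6 h, H2O 6 h, ABX 18 h and H2O 18 h. All titles carry the mark WT, the labels used here give neither strain nor age, and no group at 6 or 18 h was without the drug, so time and drug cannot be told apart. Whether each tumour came from its own mouse is not in the labels, and p-values then rest on the spread between samples, which may be technical in part. Array numbers 1 to 5 within a group are names only.

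When oxygen is scarce, the prolyl hydroxylases that mark the alpha subunits of the hypoxia-inducible factors (HIFs) for destruction lose activity, and the stabilised HIF binds a short core motif near its target genes. Its targets raise glucose uptake, glycolysis, lactate export and vessel growth, and include some of the hydroxylases themselves, which forms a feedback loop. Solid tumours often hold poorly perfused regions in which these genes are high, and many dividing lymphoid cells use glycolysis even when oxygen is present.

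The promoters of the members on which the results turn are shown first, with the core motif in capitals. The motif searched was ACGTG or GCGTG on either strand, so that CACGT and CACGC also count, and neighbouring matches can overlap, as in a palindromic match read on both strands. The windows run from 250 bases before to 50 bases after the transcription start and come from RefSeq on build GRCm38.p6, printed 5′ to 3′ on the strand of the gene. The first 5 genes are the members with the widest spread between arrays that have a window, Hif1a encodes the regulated subunit itself, and Pfkp is the member that passed the test over time.
Adm, chr7:110627407-110627706, plus strand: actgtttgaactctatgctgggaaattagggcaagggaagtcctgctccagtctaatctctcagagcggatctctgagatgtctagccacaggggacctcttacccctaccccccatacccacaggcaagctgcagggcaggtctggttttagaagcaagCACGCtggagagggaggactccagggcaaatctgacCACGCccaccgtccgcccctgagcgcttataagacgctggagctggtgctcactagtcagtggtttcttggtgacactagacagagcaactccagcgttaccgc
Ankrd37, chr8:45999801-46000100, minus strand: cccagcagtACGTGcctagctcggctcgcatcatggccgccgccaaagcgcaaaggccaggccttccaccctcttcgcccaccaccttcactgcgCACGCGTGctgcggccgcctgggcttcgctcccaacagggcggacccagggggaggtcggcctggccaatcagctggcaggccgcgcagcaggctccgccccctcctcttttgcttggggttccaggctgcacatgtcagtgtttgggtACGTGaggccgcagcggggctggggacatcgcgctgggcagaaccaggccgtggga
Bnip3, chr7:138909457-138909756, minus strand: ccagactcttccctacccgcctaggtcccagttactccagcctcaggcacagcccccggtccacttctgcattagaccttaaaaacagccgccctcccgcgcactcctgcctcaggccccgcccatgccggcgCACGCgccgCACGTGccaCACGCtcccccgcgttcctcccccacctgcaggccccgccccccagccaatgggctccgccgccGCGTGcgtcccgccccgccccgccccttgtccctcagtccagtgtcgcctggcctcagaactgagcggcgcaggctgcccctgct
P4ha2, chr11:54100674-54100973, plus strand: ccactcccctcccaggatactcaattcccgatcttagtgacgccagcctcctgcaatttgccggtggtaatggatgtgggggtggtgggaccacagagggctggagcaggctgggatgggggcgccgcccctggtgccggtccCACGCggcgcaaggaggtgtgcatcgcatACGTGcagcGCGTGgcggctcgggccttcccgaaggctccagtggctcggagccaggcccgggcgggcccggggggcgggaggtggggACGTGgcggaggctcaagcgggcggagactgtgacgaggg
Slc2a1, chr4:119108495-119108794, plus strand: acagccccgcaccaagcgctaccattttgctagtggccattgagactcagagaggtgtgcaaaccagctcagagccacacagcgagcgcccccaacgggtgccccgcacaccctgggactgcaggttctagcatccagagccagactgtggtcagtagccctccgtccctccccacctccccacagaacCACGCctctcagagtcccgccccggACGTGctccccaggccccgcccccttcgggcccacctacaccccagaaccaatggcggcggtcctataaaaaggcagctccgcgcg
Hif1a, chr12:73907617-73907916, plus strand: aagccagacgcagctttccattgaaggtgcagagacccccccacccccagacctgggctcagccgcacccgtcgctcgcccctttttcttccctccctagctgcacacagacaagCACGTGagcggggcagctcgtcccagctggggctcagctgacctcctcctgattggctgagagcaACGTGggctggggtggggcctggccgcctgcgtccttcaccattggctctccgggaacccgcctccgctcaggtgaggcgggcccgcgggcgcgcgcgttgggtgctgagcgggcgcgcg
Pfkp, chr13:6648722-6649021, minus strand: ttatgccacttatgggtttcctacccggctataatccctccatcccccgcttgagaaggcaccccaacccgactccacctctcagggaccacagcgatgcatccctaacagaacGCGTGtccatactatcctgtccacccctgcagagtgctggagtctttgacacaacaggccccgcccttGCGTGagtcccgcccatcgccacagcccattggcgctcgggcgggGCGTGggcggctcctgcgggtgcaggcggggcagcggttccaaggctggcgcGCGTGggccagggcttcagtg

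A promoter window was given for 31 of the 34 members, all but Slc2a3, Bnip3l and Ndrg1. At least 1 match stood in 29 of these 31 genes (93.5%), against 46.7% of all 27025 genes with a window. Among genes with a single window the shares were 90.5% of 21 members and 43.1% of 22862 genes. The ACGTG form alone stood in 23 of 31 members (74.2%) and in 21.8% of all genes. Adm and Pfkp held only the GCGTG form in the windows shown, Hif1a only the ACGTG form. A match is a description of the letters and not a site, and the list was drawn from genes known to respond to HIF, so a high share was built into it.

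A single array stood apart in these genes. On ABX 6 h array 5, 30 of the 34 members were above the mean of the other 4 arrays of the group, 22 by more than 0.5 and 11 by more than 1 on the log2 scale. For 27 members it was the highest of all 30 arrays, a position it held for 5.96% of all genes. Its median member deviation from the group mean was 0.53, whereas the medians of the other 29 arrays lay between -0.16 and 0.20. The other 4 arrays of the group were not all alike. Over all genes, array 3 was the highest of the group for 37.6% and array 5 for 20.8%. Array 3 was the lowest of the group for 14 of the 34 members. Calls and median differences of the members are given with and without ABX 6 h array 5 where they differ. Other counts are given both ways for some comparisons only.

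**Figure D1:**
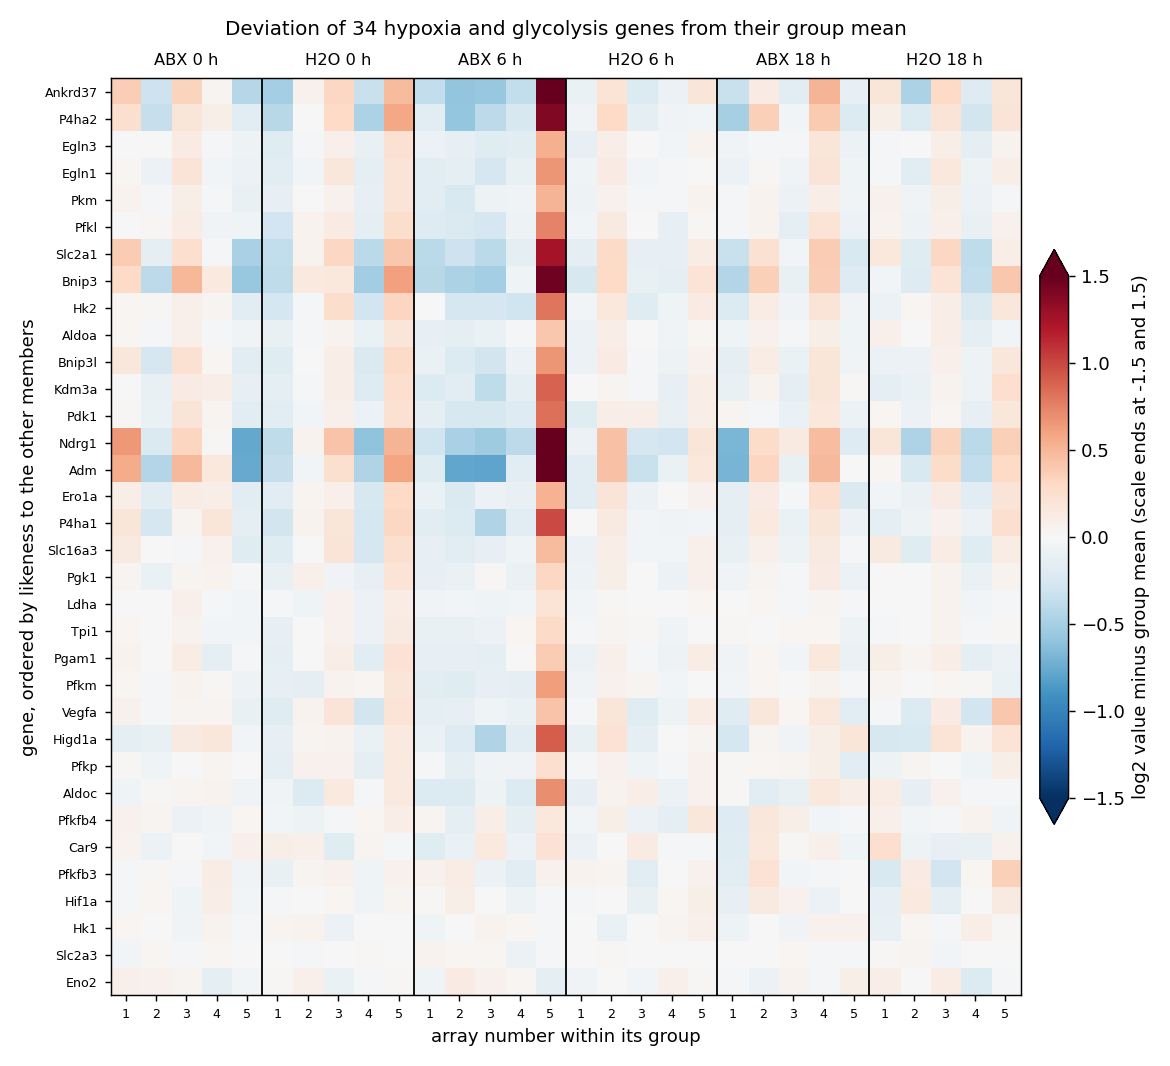
Deviation of each of the 34 members (rows, ordered by their likeness to the other members) from its own group mean on the log2 scale, for the 30 arrays (columns, grouped by treatment and time). ABX 6 h array 5 is the dark red column, with a median deviation of 0.53, and the rows of Pfkfb3, Hif1a, Hk1, Slc2a3 and Eno2 stay pale in it.

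The members that were farthest up on this array were HIF targets outside glycolysis. Adm, which encodes the vessel-dilating peptide adrenomedullin, had log2 values of 9.00, 8.40, 8.39, 9.01 and 11.09 on ABX 6 h arrays 1 to 5, against 9.29, 9.90, 9.12, 9.36 and 9.61 on the H2O 6 h arrays. Array 5 was 5.225-fold above the mean of the other 4 ABX 6 h arrays, and those 4 lay below every H2O 6 h array. Here and below, this split leaves out an array picked for its values in these genes. How many of all genes show it was not counted. With all 5 arrays, no member was without overlap between ABX and H2O at 6 h, where 4.95% of all genes were. In the other groups, Adm had values of 9.40, 8.40, 9.32, 8.99 and 8.08 on the ABX arrays and 9.23, 9.53, 9.81, 9.13 and 10.16 on the H2O arrays at 0 h, with overlap between the groups. At 18 h it had values of 8.48, 9.50, 9.08, 9.67 and 9.19 on the ABX arrays and 9.53, 9.27, 9.77, 9.13 and 9.80 on the H2O arrays, again with overlap.

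Ankrd37, which encodes an ankyrin repeat protein, had values of 7.89, 7.67, 7.69, 7.89 and 10.17 on the ABX arrays and 8.19, 8.50, 8.09, 8.21 and 8.48 on the H2O arrays at 6 h. Array 5 was 5.223-fold above the mean of the other 4, while these 4 were all lower than the H2O arrays. At 0 h its values were 8.28, 7.61, 8.25, 7.96 and 7.49 on the ABX arrays and 7.90, 8.48, 8.72, 8.08 and 8.89 on the H2O arrays. At 18 h they were 7.62, 8.08, 7.78, 8.46 and 7.83 on the ABX arrays and 8.25, 7.59, 8.36, 7.88 and 8.25 on the H2O arrays. The groups overlapped at both of these times, and H2O 0 h array 5 was the second highest of all 30 arrays.

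Ndrg1, a stress-responsive gene that many cell types switch on in low oxygen, had values of 9.61, 9.42, 9.38, 9.52 and 11.61 on the ABX arrays and 9.85, 10.38, 9.69, 9.66 and 10.12 on the H2O arrays at 6 h. Array 5 was 4.37-fold above the mean of the other 4 and higher than any other array. Its values were 10.38, 9.52, 10.05, 9.76 and 8.97 on the ABX arrays and 9.92, 10.35, 10.73, 9.71 and 10.82 on the H2O arrays at 0 h. They were 9.10, 10.07, 9.93, 10.25 and 9.60 on the ABX arrays and 10.37, 9.72, 10.51, 9.77 and 10.54 on the H2O arrays at 18 h. The lowest value of all 30 was on ABX 0 h array 5, and the groups overlapped at each time.

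Bnip3, a receptor on mitochondria that directs them to autophagy, had values of 9.76, 9.69, 9.66, 10.11 and 11.63 on the ABX arrays and 10.14, 10.67, 10.27, 10.23 and 10.58 on the H2O arrays at 6 h. Array 5 was 3.55-fold above the mean of the other 4, which were all below the lowest H2O 6 h array. At 0 h Bnip3 had values of 10.31, 9.63, 10.52, 10.16 and 9.45 on the ABX arrays and 10.19, 10.72, 10.73, 10.05 and 11.19 on the H2O arrays. At 18 h it had values of 9.66, 10.45, 9.99, 10.47 and 9.91 on the ABX arrays and 10.24, 10.09, 10.49, 9.92 and 10.69 on the H2O arrays. H2O 0 h array 5 was the only other array above 11, and the groups overlapped at both times.

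P4ha2, a catalytic subunit of collagen prolyl hydroxylase, had values of 7.23, 6.83, 7.01, 7.16 and 8.80 on the ABX arrays and 7.50, 7.86, 7.41, 7.50 and 7.52 on the H2O arrays at 6 h. Array 5 was 3.34-fold above the mean of the other 4, and these were again all lower than the H2O arrays. At 0 h the values were 7.61, 7.02, 7.56, 7.46 and 7.20 on the ABX arrays and 7.33, 7.75, 8.03, 7.27 and 8.32 on the H2O arrays. At 18 h they were 6.82, 7.68, 7.28, 7.72 and 7.11 on the ABX arrays and 7.67, 7.39, 7.78, 7.31 and 7.78 on the H2O arrays. Both times showed overlap, with the H2O arrays widely spread at 0 h.

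Slc2a1, which encodes the glucose transporter that HIF is best known to induce, had values of 11.00, 11.09, 11.00, 11.26 and 12.65 on the ABX arrays and 11.28, 11.71, 11.29, 11.30 and 11.53 on the H2O arrays at 6 h. Array 5 was 2.95-fold above the mean of the other 4, all of which were lower than every H2O 6 h array. At 0 h the values were 11.51, 11.00, 11.38, 11.11 and 10.65 on the ABX arrays and 11.15, 11.57, 11.83, 11.11 and 11.92 on the H2O arrays. At 18 h they were 10.96, 11.52, 11.25, 11.67 and 11.06 on the ABX arrays and 11.61, 11.28, 11.77, 11.07 and 11.56 on the H2O arrays. The groups overlapped at both times, and array 5 was the lowest of the ABX 0 h arrays and the highest of the H2O 0 h arrays.

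**Figure D2:**
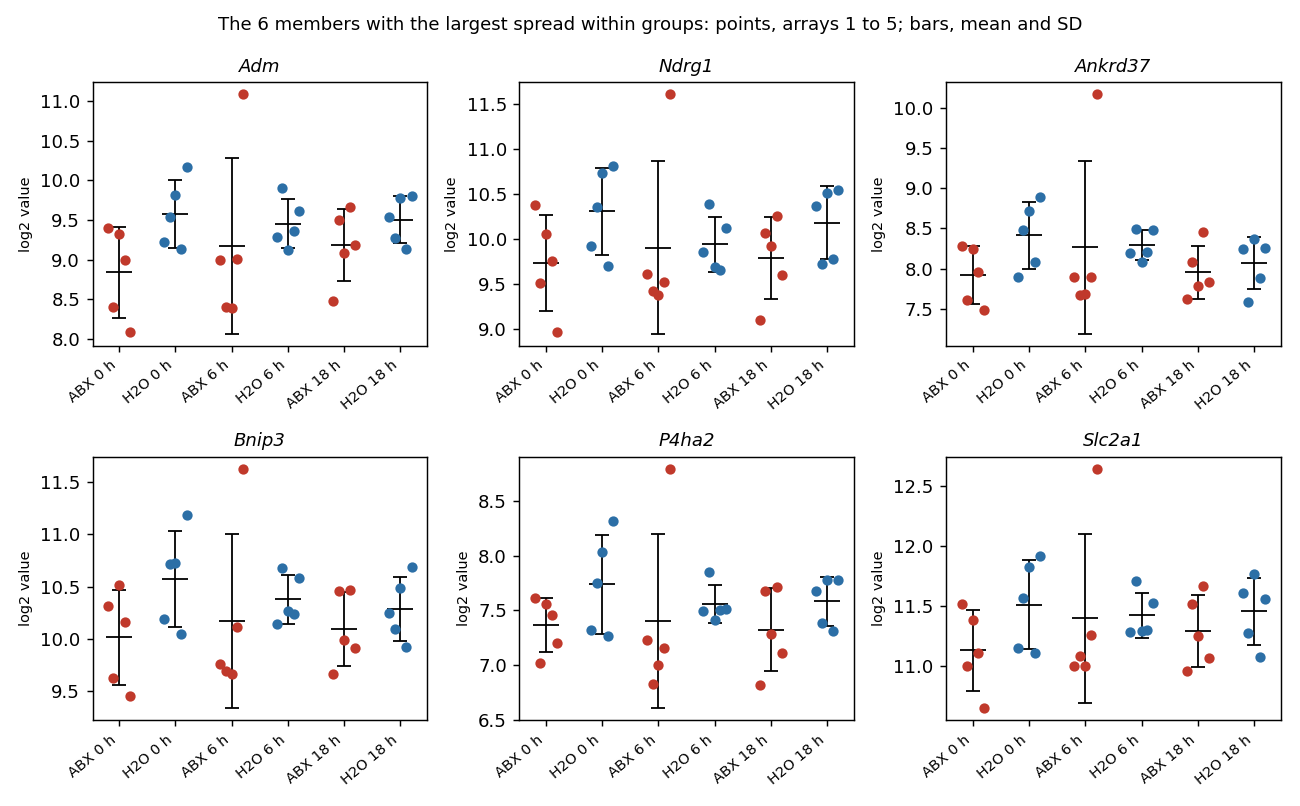
Log2 values of the 6 members with the largest residual SD within groups, for the 5 arrays of each of the 6 groups (red, ABX; blue, H2O; vertical bars, mean and SD). In each panel ABX 6 h array 5 is the highest point, for Adm at 11.09, and the other 4 ABX 6 h arrays lie below every H2O 6 h array. With array 5, the ABX and H2O arrays overlap at 6 h in every panel. The 6 genes vary together, so the panels are not separate observations.

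The glycolytic enzymes moved on the same array by smaller amounts. Of the enzymes of the pathway itself, Hk2, the inducible hexokinase that traps glucose in the cell, was 2.01-fold above the mean of the other 4, and the phosphofructokinase subunits Pfkl, Pfkm and Pfkp were 1.90-fold, 1.72-fold and 1.25-fold above it. The aldolases Aldoc and Aldoa, which split the sugar, were 1.82-fold and 1.42-fold above it. Pkm (pyruvate kinase), Pgam1 (phosphoglycerate mutase), Pgk1 (phosphoglycerate kinase), Tpi1 (triose phosphate isomerase) and Ldha (lactate dehydrogenase) lay between 1.196-fold and 1.558-fold above it, and each was highest of all 30 arrays there. Pdk1, a kinase that inhibits pyruvate dehydrogenase, was 2.04-fold above it, and Slc16a3, which exports lactate, 1.51-fold.

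Among the remaining HIF targets, P4ha1, another catalytic subunit of collagen prolyl hydroxylase, was 2.36-fold above the mean of the other 4. Higd1a, a mitochondrial protein, was 2.20-fold above it and the histone demethylase gene Kdm3a 2.15-fold. The hydroxylase genes Egln1 and Egln3, whose products mark HIF for destruction, were 1.77-fold and 1.60-fold above it. Bnip3l, the paralogue of Bnip3, was 1.78-fold above it, the endoplasmic reticulum oxidase gene Ero1a 1.57-fold, and Vegfa, which drives vessel growth, 1.44-fold. Car9, a carbonic anhydrase gene much used as a hypoxia marker in human tumours, was 1.21-fold above it, with log2 values between 5.97 and 6.45 on all 30 arrays.

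Some members did not follow. Slc2a3, the other glucose transporter of the list, was 0.988 times the mean of the other 4 on this array, and Hif1a was 0.980 times it. Hk1, the constitutive hexokinase, was 0.983 times it on the row used, and Eno2, the neuronal enolase, was 0.881 times it. Pfkfb3 and Pfkfb4, whose products make the activator of phosphofructokinase, were 1.06-fold and 1.14-fold above it, and neither was highest of the 30 arrays there. The messenger of the regulated HIF subunit was thus close to its level on the other arrays of the group where its targets were high.

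Other genes also stood apart on ABX 6 h array 5. All 15 skeletal muscle markers were highest of the 30 arrays there, and their mean log2 level was 10.01, against 7.80 to 8.50 on the other 4 arrays of the group. All 12 macrophage markers were above the mean of the other 4, with a list mean of 9.68 against 9.03 to 9.26, and none of 12 keratinocyte markers was, with a list mean of 6.61 against 6.79 to 8.74. The 9 T cell markers had a mean of 10.64 on this array, against 10.38 to 10.53 on the other 4. Of 11 neutrophil markers 9 were above the mean of the other 4, with a list mean of 7.46 against 6.84 to 7.14, and of 7 adipocyte markers 6 were, with 7.65 against 7.11 to 7.49. The part of RNA from these cells in the members' levels was not tested, and in bulk tumours more cells of a type and more RNA per cell cannot be told apart. Several members, Pfkm and Aldoa among them, are also abundant in muscle.

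Other arrays differed from their groups in the same genes, by less. On H2O 0 h array 5, 33 of 34 members were above the group mean, with a median deviation of 0.20, and on H2O 0 h arrays 1 and 4 only 4 each were. On ABX 0 h array 5, 2 of 34 were above it, with a median of -0.081. On ABX 18 h array 4, 29 of 34 were above it, with a median of 0.16. On H2O 6 h arrays 2 and 5, 31 and 30 were above it. On these arrays most members thus lay on the same side of their group means.

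**Figure D3:**
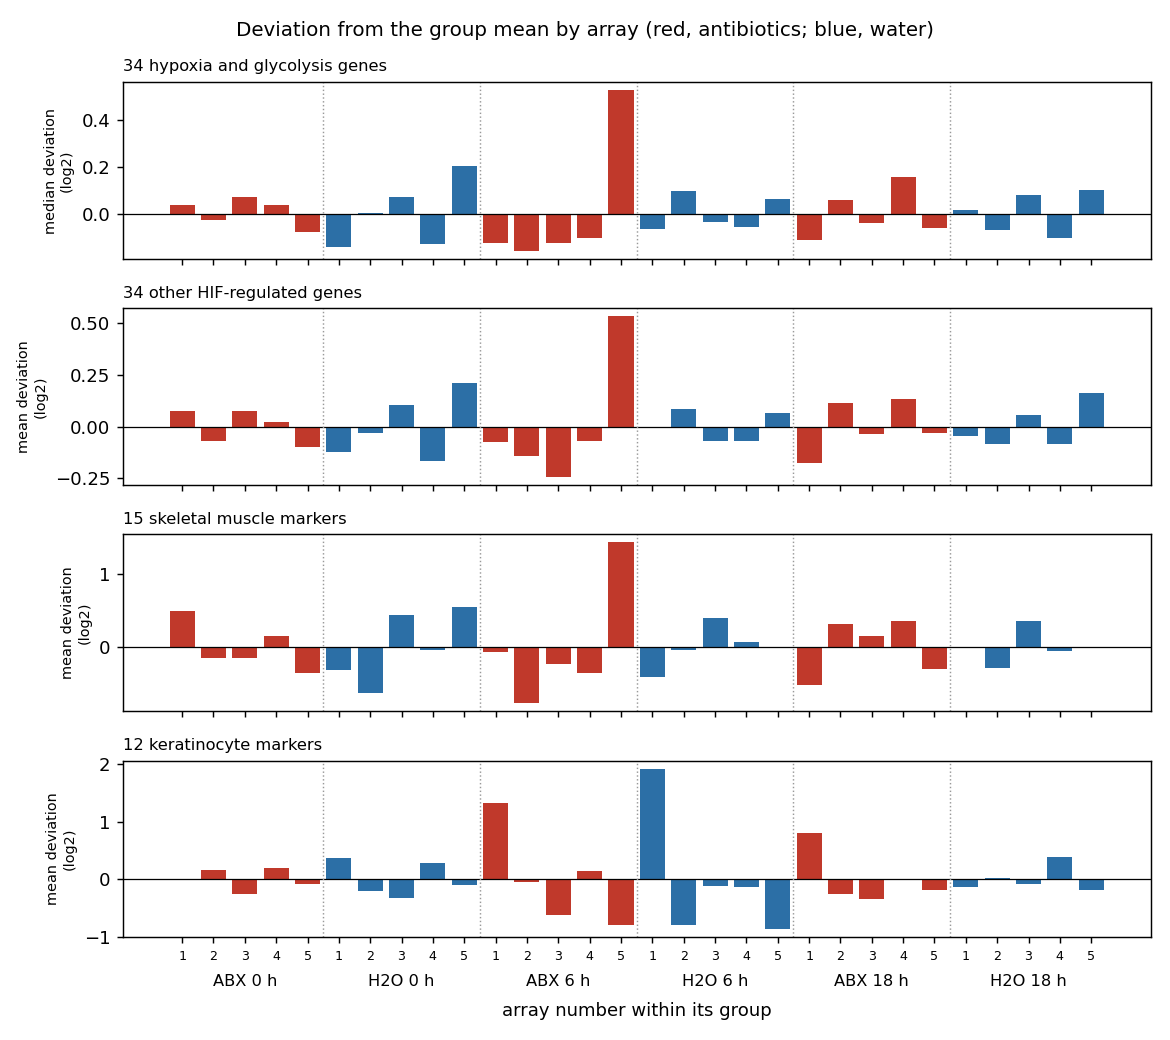
Deviation from the group mean on the log2 scale for each of the 30 arrays (red, ABX; blue, H2O), as the median of the 34 members and as the means of 34 other HIF-regulated genes, 15 skeletal muscle markers and 12 keratinocyte markers. ABX 6 h array 5 is the highest bar in the first 3 panels, and H2O 6 h array 1 in the last.

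The spread between arrays of a group was measured as the residual SD of the fit. Its median was 0.181 over the members and 0.115 over all genes, and 10 members exceeded 0.239, the 95th percentile of all genes. It was 0.596 for Adm, 0.563 for Ndrg1, 0.532 for Ankrd37, 0.482 for Bnip3, 0.432 for P4ha2 and 0.400 for Slc2a1. The steadiest members were Slc2a3 with 0.031, Hk1 with 0.060, Ldha with 0.065 and Hif1a with 0.086. For 29 members the widest group was ABX 6 h, where the median SD was 0.299 with array 5 and 0.072 without it.

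How alike the members were was measured as Pearson's r, over the arrays, between each member and the median of the other members, in deviations from the group means. For 27 of 34 members r was at least 0.8 over 30 arrays, and for 20 over the 29 arrays without ABX 6 h array 5. Of 19904 other genes, 1.02% and 0.206% reached 0.8 with the members' median over 30 and 29 arrays. Over 30 arrays Ankrd37 (0.967), P4ha2 (0.959), Egln3, Egln1 and Pkm (0.954 each) led, and over 29 arrays Ero1a (0.927) and Bnip3 (0.919) did. Over 30 arrays Pfkfb4, Car9, Pfkfb3, Hif1a, Hk1, Slc2a3 and Eno2 were the 7 under 0.5. The arrays share their array-wide quality and their mix of cells, so these values describe the tumours and are not a test.

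The HIF motif could not tell the alike from the unlike members, since nearly all members with a window hold it. It was found in 24 of 25 members with r of at least 0.8 and a window, and in 5 of 6 members with r under 0.5. Hk1 is among these 6, on a row that is uncertain, as given below. The Hif1a window shown above holds 3 ACGTG matches, and Hif1a stayed level on ABX 6 h array 5.

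The genes most like the members among all others, by r with the members' median over 30 arrays, began with Gys1, glycogen synthase, at 0.977 (0.939 over 29 arrays). Anxa2, Gbe1 (glycogen branching enzyme), Pgm1 (phosphoglucomutase) and Selenbp1 followed at 0.955, 0.954, 0.953 and 0.952. Fam117b, Rgs11, Arrb1, Kdm4b and Atp7b completed the first 10, at 0.945 or more. Gys1 had log2 values of 8.51, 8.39, 8.42, 8.49 and 10.11 on the ABX 6 h arrays, against 8.57, 9.06, 8.60, 8.63 and 8.88 on the H2O 6 h arrays. It was thus high on array 5 and low on the other 4, as the leading members were.

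Hk1 calls for a reservation. The row with its highest mean is annotated through 1 accession that stands on 18 rows, 16 of which also carry Rpl17, a ribosomal protein gene. Another Hk1 row had r = 0.948 with the members' median, and the row used had -0.12. Hk1 is therefore uncertain here. Pgk1, Pgam1, Pkm, Bnip3, Bnip3l and Higd1a also had several rows, with r between the members' median and each row of 0.719 or more.

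The first question of the design was whether the antibiotics changed the tumours before the drug. In ABX against H2O tumours at 0 h no member passed the limma test at an adjusted p under 0.05, in a comparison where 0.0903% of all genes did. An ordinary linear model also called 0 members, and 4 (11.8%) had an unadjusted p under 0.05 in limma, as had 6.61% of all genes. Without ABX 6 h array 5 these were 17 of 34 members and 7.96% of all genes, and still 0 passed. The members' log2 differences ranged from -0.73 for Adm to 0.11 for Hif1a, with a median of -0.13 against -0.0057 over all genes. They were below 0 for 30 of 34 members, a direction in which the genes are not independent since they vary together. Without H2O 0 h array 5 the median was -0.087. The smallest adjusted p with all arrays was 0.647, for Tpi1, with a difference of -0.14 ± 0.057 (SE).

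At 6 h, ABX against H2O tumours gave 0 members past the test, where 3.77% of all genes passed. The ordinary linear model called 0 too, and 1 member (2.94%) had an unadjusted p under 0.05, against 19.9% of all genes. Without ABX 6 h array 5 these were 10 members (29.4%) and 25.5% of all genes. The median difference was -0.0037, with 18 of 34 members below 0. Without ABX 6 h array 5 it was -0.11, with 26 of 34 below 0. P4ha1 then passed, with a difference of -0.38 ± 0.11 (SE) and an adjusted p of 0.0415 in limma, where 4.27% of all genes passed as lower. Its values were 9.94, 9.89, 9.65, 9.94 and 11.09 on the ABX arrays and 10.24, 10.37, 10.19, 10.18 and 10.20 on the H2O arrays. Arrays 1 to 4 lay below every H2O array and array 5 above them all. The sign of the difference at 6 h was turned for 12 of 34 members when array 5 was left out, of which 10 were above 0 with it.

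At 18 h only Slc2a3 passed, as higher in ABX tumours, where 4.52% of all genes passed as higher. Slc2a3, the high-affinity glucose transporter of lymphocytes and neurons, had values of 12.48, 12.49, 12.52, 12.47 and 12.47 on the ABX arrays and 12.40, 12.43, 12.35, 12.38 and 12.38 on the H2O arrays. The groups did not overlap. The difference was 0.098 ± 0.029 (SE) on the log2 scale, a fold of 1.07, with an adjusted p of 0.0369 in limma. An exact two-sided permutation test gave p = 0.0079, the smallest that 5 against 5 arrays allow. That value restates that the groups do not overlap, which held for 7.2% of all genes. The call was lost in 8 of the 30 fits that left out 1 array, those without ABX 18 h array 1, 2, 3 or 4 or H2O 18 h array 1, 3, 4 or 5, with adjusted p between 0.0248 and 0.108 over the 30.

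At the other times Slc2a3 had values of 12.39, 12.45, 12.41, 12.46 and 12.42 on the ABX arrays and 12.40, 12.37, 12.38, 12.40 and 12.39 on the H2O arrays at 0 h. At 6 h it had values of 12.41, 12.39, 12.39, 12.27 and 12.35 on the ABX arrays and 12.30, 12.33, 12.30, 12.31 and 12.32 on the H2O arrays. The ABX and H2O arrays overlapped at 0 h and at 6 h. Averaged over the times, the difference was 0.060 ± 0.017 (SE), with an adjusted p of 0.0281 in limma. This call was lost, at 0.0508, when ABX 6 h array 1 was left out.

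The other 33 members did not pass at 18 h. Their differences ran from -0.39 for Ndrg1 to 0.14 for Vegfa. The median over all 34 was -0.014, with 20 below 0 and 14 above.

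Averaged over the 3 times, the number of members called depended on ABX 6 h array 5. With all 30 arrays, Slc2a3 was the only member called, as higher, where 2.57% of all genes passed as higher and 4.07% as lower. Without that array, limma called Slc2a3 as higher and 10 members as lower, where 4.23% of all genes passed as higher and 7.06% as lower. The median difference was -0.052 with the array and -0.088 without it. Array 5 was singled out because of its values in these genes, so the second count depends on a choice made with them in view.

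The 10 members lower in ABX tumours without that array are listed by known function, HIF targets outside glycolysis first. Adm was lower by 0.60 ± 0.14 (SE), with an adjusted p of 0.00662 in limma, and was at -0.44 ± 0.20 with all arrays. Ndrg1 was lower by 0.47, Bnip3 by 0.44, P4ha2 by 0.38, Ankrd37 by 0.37 and Bnip3l by 0.23, with adjusted p between 0.00744 and 0.0314. Of the glycolysis and pyruvate genes, Pfkl was lower by 0.17, Pdk1 by 0.15, Aldoa by 0.099 and Tpi1 by 0.084, with adjusted p between 0.0166 and 0.0406. Slc2a1 and P4ha1 were at -0.30 and -0.19 and did not pass, with adjusted p of 0.0546 and 0.0507.

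Marker lists of other cell types were set side by side for the same groups by their ranges, without a test. The mean of the 12 macrophage markers ranged from 9.12 to 9.58 in ABX tumours and from 9.40 to 9.87 in H2O tumours at 0 h. At 6 h it ranged from 9.03 to 9.68 in ABX and from 9.28 to 9.66 in H2O tumours. At 18 h it ranged from 9.10 to 9.56 in ABX and from 9.57 to 9.94 in H2O tumours, narrowly without overlap. Over the arrays, the macrophage list mean had r = 0.616 with the members' median in deviations from the group means, and 0.436 without ABX 6 h array 5. For the skeletal muscle list r was 0.81 and 0.593, and for the T cell list 0.648 and 0.468. The neutrophil, adipocyte, fibroblast and endothelium lists had r of 0.443, 0.377, 0.266 and 0.231. Without that array r was 0.184, 0.064, 0.314 and 0.078. For the erythroid list r was -0.125 and 0.12, and for the keratinocyte list -0.465 and -0.384. At 18 h the T cell list mean ranged from 10.40 to 10.56 in ABX and from 10.55 to 10.69 in H2O tumours. The adipocyte list mean ranged from 7.298 to 7.416 in ABX and from 7.432 to 7.622 in H2O tumours at 18 h, also without overlap. The part of these lists in the members' differences was not tested.

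**Figure D4:**
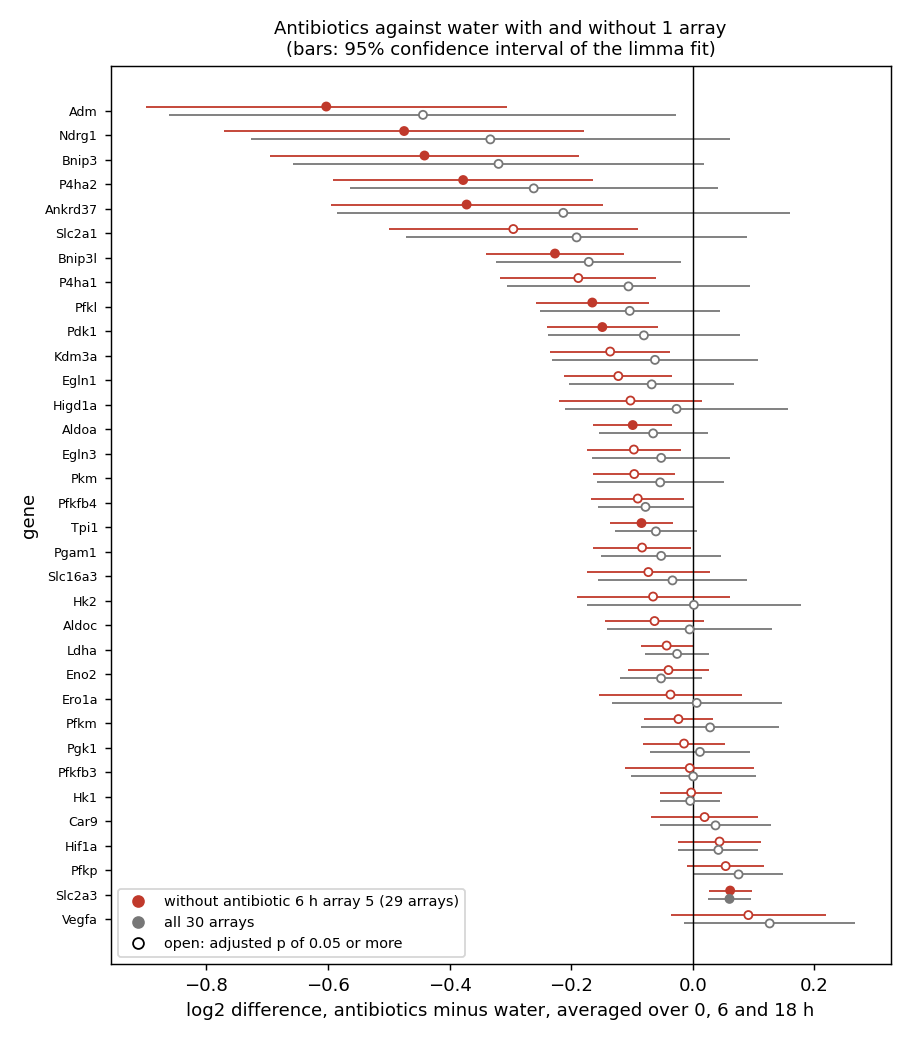
Log2 difference between ABX and H2O tumours averaged over 0, 6 and 18 h for the 34 members, without ABX 6 h array 5 (red) and with all 30 arrays (grey), with 95% confidence intervals of the limma fit. Filled points have an adjusted p under 0.05, which holds for 11 members without the array and for Slc2a3 alone with it.

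The second question was how the tumours changed in the hours after oxaliplatin. In H2O tumours 1 member passed at 18 h against 0 h, as lower, where 7.94% of all genes did. Pfkp, the platelet-type phosphofructokinase found in many dividing cells, had values of 11.56, 11.67, 11.64, 11.56 and 11.71 on the H2O 18 h arrays, against 11.75, 11.95, 11.95, 11.75 and 12.03 on the H2O 0 h arrays. Every 18 h array was below every 0 h array. Pfkp fell by 0.26 ± 0.062 (SE), with an adjusted p of 0.00542 in limma, and the exact two-sided permutation test gave p = 0.0079, the smallest possible. That value again restates the lack of overlap, seen in 11.2% of all genes. The call held without each of the 30 arrays in turn, with adjusted p between 0.00118 and 0.0213.

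In the other groups Pfkp was nearer to its level at 0 h. It had values of 11.78, 11.79, 11.80, 11.85 and 11.59 on the ABX 18 h arrays and 11.90, 11.82, 11.89, 11.92 and 11.88 on the ABX 0 h arrays. At 6 h it had values of 11.83, 11.72, 11.80, 11.80 and 12.11 on the ABX arrays and 11.73, 11.82, 11.70, 11.73 and 11.82 on the H2O arrays. In ABX tumours the difference between 18 h and 0 h was -0.12 ± 0.062 (SE), with an adjusted p of 0.491 in limma. The difference between the changes in ABX and H2O tumours was 0.13 ± 0.088, with an adjusted p of 0.732, so a difference in the response of Pfkp was not shown.

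The remaining members were mostly below their 0 h level in H2O tumours at 18 h, without passing. The median difference over the 34 members was -0.12 (29 below 0), against 0.012 over all genes. It was -0.041 without H2O 0 h array 5, on which 33 members were above the group mean. Vegfa was at -0.30 ± 0.12 (SE) with an adjusted p of 0.0892 in limma, and Hif1a at 0.12 ± 0.055 with 0.187. Egln1 at -0.26 and Tpi1 at -0.14 missed the threshold with all arrays and passed without ABX 6 h array 5, where 8.72% of all genes passed as lower, with adjusted p of 0.0163 and 0.0293, since the fit shares its error between groups.

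At 6 h against 0 h in H2O tumours no member passed, where 1.11% of all genes did. The ordinary linear model called 0 as well, and 2 members (5.88%) had an unadjusted p under 0.05, against 10.6% of all genes. Without ABX 6 h array 5 these were 5 members (14.7%) and 11.7% of all genes. The median difference was -0.086, with 30 of 34 below 0, and it was -0.028 without H2O 0 h array 5 and -0.14 without H2O 0 h array 1. Slc2a3 was lower on every H2O 6 h array than on any H2O 0 h array, by 0.074 ± 0.029 (SE) on average, with an adjusted p of 0.303 in limma, where 4.93% of all genes did not overlap between these groups.

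In ABX tumours no member passed at 6 h against 0 h, where 0.0% of all genes did, or at 18 h against 0 h, where 1.22% did. The ordinary linear model called 0 members in both, and 2 and 1 members had an unadjusted p under 0.05, against 10.1% and 11.1% of all genes. The median difference at 6 h was 0.073 with ABX 6 h array 5 and -0.062 without it, and it was 0.037 at 18 h, between -0.0096 and 0.057 with single arrays left out. Hk1 had the smallest p at 18 h, with a difference of 0.10 ± 0.042 (SE) and an adjusted p of 0.294. For Pfkfb3 the difference at 6 h was -0.24 ± 0.087, with an adjusted p of 0.362.

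The test of whether the response to time differed between ABX and H2O tumours called 0 members at 6 h and at 18 h, where 0.0% and 0.105% of all genes passed in limma. The ordinary linear model called 0 at both times, and 2 and 0 members had an unadjusted p under 0.05, against 9.85% and 9.49% of all genes. The median of this difference was 0.18 at 6 h with all arrays and 0.034 without ABX 6 h array 5, and 0.13 at 18 h. Without H2O 0 h array 5 it was 0.11 at 6 h and 0.081 at 18 h. These comparisons share the 0 h groups, so their directions are not separate observations.

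**Figure D5:**
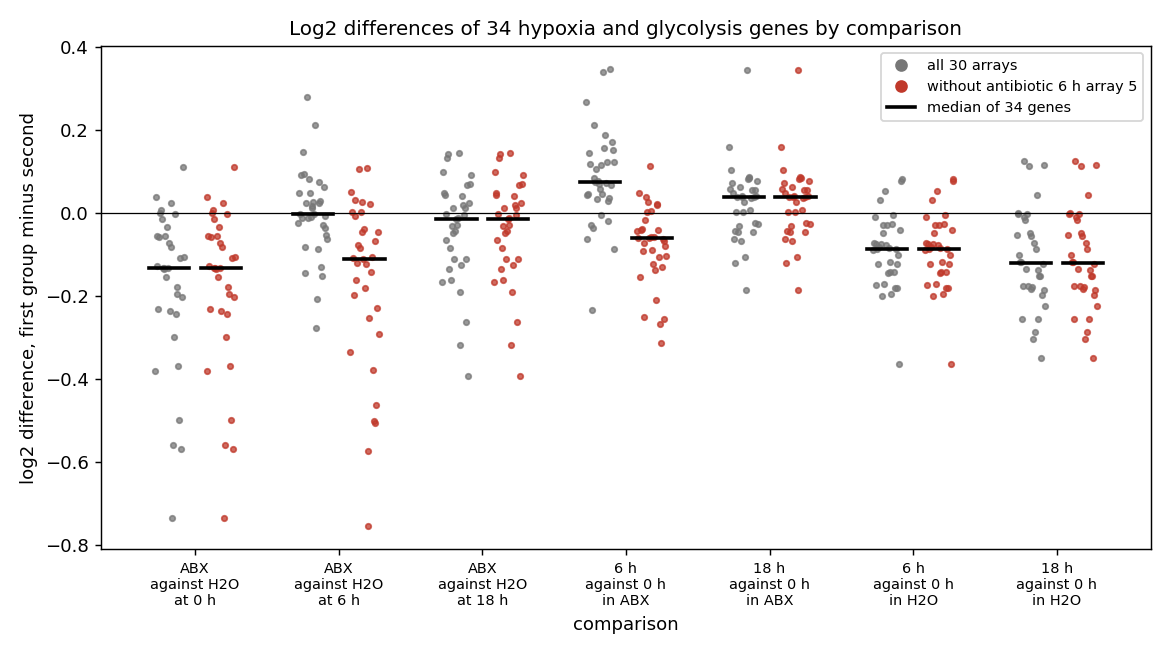
Log2 differences of the 34 members in 7 comparisons, first-named group minus second, with all 30 arrays (grey) and without ABX 6 h array 5 (red); black bars are medians. The median of ABX against H2O at 6 h is -0.11 without the array and -0.0037 with it, and that of 6 h against 0 h in ABX is -0.062 without it and 0.073 with it.

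Other genes of the pathway were read from lists that do not share members with the first. These lists were also chosen with earlier results of these data known. Of 34 other HIF-regulated genes tested, 26 were highest of all 30 arrays on ABX 6 h array 5, and their mean had r = 0.962 with the members' median over 30 arrays and 0.924 over 29. Of these 34 genes, 5 were called in at least 1 of the 10 comparisons, namely Stc2, Angptl4, Mif, Sap30 and Zfp395, where 20.7% of all genes were. Without ABX 6 h array 5 the count was 17, where 26.6% of all genes were called. Stc2 encodes the secreted hormone stanniocalcin. It was higher in ABX than in H2O tumours at 6 h by 0.58 ± 0.15 (SE), with an adjusted p of 0.0275 in limma. Its values were 9.86, 9.86, 10.03, 9.82 and 10.28 on the ABX arrays and 9.21, 9.53, 9.31, 9.25 and 9.64 on the H2O arrays, which do not overlap. It was also higher without array 5, by 0.50, while 5 genes of the list then passed as lower at 6 h. These were Plod2 (a collagen lysyl hydroxylase) at -0.83, Gbe1 at -0.44, Narf at -0.26, Kdm4c (a histone demethylase) at -0.20 and Insig2 at -0.15, with adjusted p between 0.0169 and 0.0405 in limma. The list's median at 6 h was -0.12 without array 5 (26 of 34 below 0) and -0.016 with it (18 below 0).

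Averaged over the times, the list had 1 gene called as higher, Stc2, and 0 as lower with all arrays. Without array 5 it had Stc2 as higher and 8 as lower, namely Gbe1, Gys1, Hmox1, Ccng2, Plod1, Pgm1, Fam162a and Narf, at -0.32 to -0.18 with adjusted p between 0.00288 and 0.0324 in limma. Its median was -0.082 without the array and -0.050 with it. At 18 h Angptl4, a regulator of lipoprotein lipase, was lower by 0.34 ± 0.075 in ABX than in H2O tumours (adjusted p of 0.0051 in limma).

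In H2O tumours, Mif, a secreted cytokine, fell by 0.38 ± 0.075 (SE) at 18 h against 0 h and by 0.34 at 6 h, with adjusted p of 0.000685 and 0.0181 in limma. At 18 h against 0 h Stc2 fell by 0.56, Sap30 by 0.32 and Zfp395 by 0.21, and Angptl4 rose by 0.22. Without ABX 6 h array 5, Bhlhe40 at -0.49 and Ccng2 at -0.38 passed as well. In ABX tumours Stc2 alone of this list passed at 18 h against 0 h, where it fell by 0.62.

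Of 11 genes of oxygen sensing, 3 were called in any comparison, where 20.7% of all genes were. Without ABX 6 h array 5 the count was 4, where 26.6% of all genes were called. Of the 11 genes, 0 had r of at least 0.8 with the members' median. In H2O tumours at 18 h against 0 h, Epas1, another HIF alpha subunit, rose by 0.32 ± 0.090 (SE) and Egln2, a further prolyl hydroxylase, by 0.14, with adjusted p of 0.0139 and 0.0241 in limma. Cul2, a scaffold of the ubiquitin ligase that removes HIF, fell by 0.17 with 0.0374. Vhl, the substrate receptor of that ligase, passed at -0.18 without ABX 6 h array 5. At 18 h Cul2 was higher by 0.18 ± 0.054 in ABX than in H2O tumours, with an adjusted p of 0.0369 in limma.

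Of 21 other genes of glycolysis and pyruvate use, 4 were called in any comparison, where 20.7% of all genes were. Without ABX 6 h array 5 the count was 5, where 26.6% of all genes were called. The gene added was Pgam2, as lower at 18 h against 0 h in H2O tumours. Slc16a1, a lactate and pyruvate transporter, had values of 11.35, 11.30, 11.28, 11.38 and 11.22 on the ABX 18 h arrays, against 11.10, 11.04, 10.98, 11.01 and 11.03 on the H2O 18 h arrays. All ABX values were above all H2O values. Slc16a1 was higher in ABX than in H2O tumours by 0.27 ± 0.037 (SE) at 18 h, with an adjusted p of 0.000186 in limma. Averaged over the times it was higher by 0.16 ± 0.022. In H2O tumours it fell by 0.25 at 18 h against 0 h. Pdha1, a subunit of pyruvate dehydrogenase, was higher by 0.19 in ABX than in H2O tumours at 18 h (adjusted p of 0.00382 in limma). Pfkfb2 was lower by 0.36 in ABX than in H2O tumours at 6 h. Mpc1, which carries pyruvate into mitochondria, rose by 0.36 in H2O tumours at 18 h against 0 h. For Slc16a1, r with the members' median was -0.26 over 30 arrays and 0.142 over 29.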

How the data were processed

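Tumour RNA was measured on 30 Affymetrix mouse gene arrays, 1 per sample. The authors deposited log2 values for 28853 rows per array, with array medians between 7.253 and 7.365. Per the submitters' processing notes, Partek 6.6 was used, with no role stated; the method of summary and normalisation is not stated in them. Values were used as deposited. The platform table gave 21775 rows 1 gene symbol, 1578 several and 5500 none, and the row with the highest mean was kept for each of 19938 genes. Coordinates are those of the RefSeq promoter windows only.

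Groups came from the labels. A model with 6 group means was fitted over all genes with limma 3.58.1 in R 4.3.3 (lmFit, eBayes; 24 residual and 3.63 prior degrees of freedom), with 10 comparisons, two-sided tests and Benjamini-Hochberg adjustment within each. The threshold was an adjusted p of 0.05. An ordinary linear model per gene was the other tool. The number of arrays limits the precision. Tested on simulated data for ABX against H2O at 18 h over 19938 genes, the fit recovered 94% of log2 changes of 0.5 and 95% of changes of 1, with 9 false calls. Recovery among the members was not tested, so these shares do not apply to them. Their median residual SD was 0.181, against 0.115 over all genes. In that comparison their SE ran from 0.029 for Slc2a3 to 0.35 for Adm.

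The members and lists were chosen with earlier results of these data known. Values by array are given for members called with all 30 arrays and for the 6 with the largest residual SD; other genes are named where called or most like the members. P4ha1 at 6 h, called only without 1 array, was named outside this rule after its values were seen. Alternatives were quantile normalisation, subtracted array medians, mean rows per gene, a minimum mean of 6, only the groups compared, array weights, leaving out 3 arrays high in skin or muscle markers, and leaving out each array. Another row for Hk1 was added after seeing the data.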

Additional observations from a re-analysis of the deposited data

Results flagged for a closer look

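In each group of 5 arrays, the gap between the highest or lowest array and its nearest neighbour was divided by the range of the group, and members with a share above 0.71 were listed. Of 210 groups of values tested, 33 were above this limit. About 10.5 would be expected if the groups of values were independent. They are not, since the members vary together, so 10.5 is no measure of chance here. ABX 6 h array 5 accounted for 25 of the 33, all on the high side. Over all genes, 2.03% were set apart in this way on the high side on that array, and 5.2% on ABX 6 h array 3. On either side and any array, 10.8% of all genes were set apart in ABX 6 h, against 4.85% to 5.93% in the other groups.

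Of the HIF targets, the share on ABX 6 h array 5 was above the limit for Ankrd37 (0.912), Ndrg1 (0.896), Egln3 (0.867), Vegfa (0.857), Egln1 (0.844), Ero1a (0.816), Kdm3a (0.811), Bnip3l (0.797), P4ha1 (0.795), P4ha2 (0.795), Bnip3 (0.773), Adm (0.77) and Higd1a (0.74). Of the glycolysis, glucose, lactate and pyruvate genes it was above it for Pfkm (0.939), Pdk1 (0.906), Ldha (0.889), Slc16a3 (0.851), Aldoc (0.848) and Slc2a1 (0.839). The same held for Pfkl (0.817), Aldoa (0.788), Pkm (0.773), Pgam1 (0.753) and Hk2 (0.733). The median member deviation of the array was set apart by the same measure (0.923), at 0.53 against -0.11 on the nearest array. Muscle markers were high and keratinocyte markers low on this array, as given above, and their part in these values was not tested.

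The other 8 values were spread over 7 arrays. In ABX 0 h tumours Hk2 was low on array 5 (0.763), at 9.58 against 9.76 on the nearest array, and Ldha was high on array 3 (0.752). In H2O 6 h tumours Pfkfb3 was low on array 3 (0.716) and P4ha2 was high on array 2 (0.757). In ABX 18 h tumours Pfkp (0.749) and Tpi1 (0.77) were low on array 5 and Egln3 was high on array 4 (0.742). Pfkm was low on H2O 18 h array 5 (0.754). About as many would be listed among the groups other than ABX 6 h if the values were independent, which they are not.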

How the results depend on the processing

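Counts of members called kept within 1.5 times of those reported, for each of the 10 comparisons, under subtracted array medians, the mean of the rows of a gene, a minimum mean of 6 and the other Hk1 row. Slc2a3 at 18 h in ABX against H2O tumours was the call most open to the processing: the count was 0 with quantile normalisation (adjusted p of 0.0732) and 0 with only the 2 groups compared (0.183). Averaged over the times, the count was 2 with array weights (1 higher, Slc2a3, and 1 lower, Adm) and 8, all lower, without ABX 6 h arrays 1 and 5 and H2O 6 h array 1. Those 8 were Adm, Ndrg1, Bnip3, Bnip3l, P4ha2, Ankrd37, Pfkl and Pdk1. Without the same 3 arrays the count at 18 h against 0 h in H2O tumours was 3, all lower (Pfkp, Egln1 and Tpi1). The cause of these changes in count was not tested. The shares of all genes called in these fits are not given here, so the counts cannot be set against them. Without ABX 6 h array 5 alone, 7.06% of all genes passed as lower averaged over the times, against 4.07% with all arrays. The comparison averaged over the times uses all groups, so the fit on only the groups compared could not be made for it.

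Leaving out each array in turn gave 0 to 1 members called in ABX against H2O tumours at 6 h, 0 to 1 at 18 h, 0 to 11 averaged over the times and 1 to 3 at 18 h against 0 h in H2O tumours. It gave 0 to 0 in the other 6 comparisons. The count averaged over the times was 0 without ABX 6 h array 1 and 11 without ABX 6 h array 5. At 18 h against 0 h in H2O tumours it was 3 without ABX 6 h array 5 or H2O 18 h array 5, and 2 without H2O 0 h array 4 or H2O 18 h array 4. Of these fits, the share of all genes called is given above only for the fit without ABX 6 h array 5. The median deviation of the members on ABX 6 h array 5 was 0.53 as deposited, 0.52 with quantile normalisation and 0.54 with array medians subtracted. No paired analysis was possible because the sample numbers in the labels run through the whole series and pair no samples between groups. The arrays give no signal over background, so the level of dim members such as Car9 and Eno2 has no detection limit here.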
